A study of Mus musculus with 8 samples.

Results

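The transcripts of mitochondrial DNA (mtDNA) are the 37 rows of the count table whose gene name starts with mt-, of 54532 rows in all. They comprise 13 messenger RNAs, 2 ribosomal RNAs and 22 transfer RNAs. All of them were taken by name, although the set was chosen with earlier results of these data known. The table holds 8 RNA-Seq libraries of LSK cells, the lineage-negative, c-Kit+ and Sca-1+ fraction of bone marrow that contains hematopoietic stem and progenitor cells. The cells came from C57BL/6 mice carrying Zeb1 fl/fl and Mx1-Cre, whose age is not given in the sources used here, and they were taken on day 14 once pIpC dosing had ended. pIpC induces Cre and deletes Zeb1, a transcriptional repressor. Cells were sorted by the surface protein EpCAM into EpCAM+ Zeb1-/- and EpCAM- Zeb1-/- fractions, with 4 libraries each. By their labels both fractions were Zeb1-/- and had the pIpC treatment, no library of undeleted cells was analysed here, and Mx1-Cre is an interferon-inducible driver that acts in many cell types besides blood cells. The question addressed was whether RNA made from mtDNA differed between the fractions, beside the nuclear genes that make and process that RNA and encode its partner subunits.

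Mitochondria keep a small circular genome that is copied and transcribed by its own enzymes, all of which are encoded in the nucleus. Transcription yields long precursors from both strands, in which transfer RNAs punctuate the messenger and ribosomal RNAs and are cut out to release them. The messenger RNAs encode core subunits of respiratory complexes I, III, IV and V, which assemble with nuclear-encoded subunits, whereas complex II is wholly nuclear. Quiescent hematopoietic stem cells are known for low mitochondrial respiration, and differentiating progenitors rely on it more.

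Library totals lay between 14114491 and 17073546 counts. Epcam, the sorted marker, was at 187 ± 32.7 CPM (counts scaled by library size and TMM factor; SD, n = 4) in the EpCAM+ fraction and 3.86 ± 3.61 in the EpCAM- fraction. The targeted gene Zeb1 was at 19.5 ± 3.75 and 11.9 ± 2.14 CPM and passed as higher in EpCAM+ cells (log2 fold change 0.72, adjusted p = 0.00798), a count over the whole gene that does not show whether the floxed part was lost. Over all genes tested, 21.8% were higher and 20.8% lower in EpCAM+ cells, the shares beside which the marker counts below stand. The sorted phenotype was marked unevenly, with 8 of 9 LSK marker genes higher in EpCAM+ cells and summed levels of 2228 to 2562 CPM against 1094 to 1682. Of 8 neutrophil and monocyte markers, 7 were tested, of which 3 (Elane, Mpo and Csf1r) were lower and 1 (Lyz2) higher in EpCAM+ cells. S100a8, S100a9 and Ly6c2 did not pass. The sums were 1364 to 1998 against 10320 to 16890 CPM, of which Mpo alone was 8739 to 12210 CPM in EpCAM- cells. Ly6g stayed at or below a mean of 0.0912 CPM. Of 8 erythroid markers 6 were lower in EpCAM+ cells, with sums of 46.7 to 229 against 1993 to 6880 CPM. Of the latter, Car1 alone was 1599 to 5956 CPM. B and plasma cell markers summed to 294.5 to 3720 against 48.6 to 84.5 CPM, with 4 of 6 tested higher in EpCAM+ cells. EpCAM+ library 1 stood apart, with a sum of 3720 CPM of which the plasma cell gene Jchain was 3525, while the other 3 EpCAM+ libraries had sums of 294.5 to 517 CPM. The part of these markers in the results that follow was not tested, and in bulk libraries fewer cells of a type and less RNA per cell cannot be told apart. The labels give 4 mice per genotype and do not say whether both fractions came from the same mice.

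Several mtDNA genes share sequence with each other or with the nucleus, and the sequences that bear on this are shown first. All are from GENCODE M21 transcripts on GRCm38, the build of the table. The gene mt-Atp8 (MT:7766-7969, plus strand) overlaps mt-Atp6, and the capitals mark the 43 bases of mt-Atp8 that both genes hold. These bases cannot separate the 2 genes by sequence.

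mt-Atp8: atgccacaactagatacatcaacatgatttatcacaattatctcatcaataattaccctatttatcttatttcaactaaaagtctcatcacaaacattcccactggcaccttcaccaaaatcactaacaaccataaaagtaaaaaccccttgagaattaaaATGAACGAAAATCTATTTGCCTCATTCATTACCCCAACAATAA

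The chromosome 1 pseudogene Gm28439 holds the first 876 of the 1378 bases of mt-Nd4 without a mismatch. The window of mt-Nd4 below (MT:11003-11082, plus strand) shows where that copy ends, with its last 40 bases in capitals. The lower-case bases after them lie outside the copy.

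mt-Nd4: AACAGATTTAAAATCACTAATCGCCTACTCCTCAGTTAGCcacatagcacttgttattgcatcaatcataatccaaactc

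The first 60 bases of mt-Nd3 (MT:9459-9518, plus strand) and of its copy Gm28438 (chr1:24613060-24613119, minus strand) are shown because they hold the single base by which the 2 differ over 345 aligned bases. The capital marks that base, the substitution T3C counted from the first base of mt-Nd3.

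mt-Nd3: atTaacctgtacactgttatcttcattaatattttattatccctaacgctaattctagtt

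Gm28438: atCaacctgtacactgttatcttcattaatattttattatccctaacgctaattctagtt

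Of the 22 transfer RNAs, mt-Tn for asparagine (MT:5089-5159) and mt-Tp for proline (MT:15356-15422), both on the minus strand, were the pair that passed the filter on low counts. They are shown in lower case throughout, since no part of them is singled out.

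mt-Tn: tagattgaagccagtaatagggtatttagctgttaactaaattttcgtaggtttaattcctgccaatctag

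mt-Tp: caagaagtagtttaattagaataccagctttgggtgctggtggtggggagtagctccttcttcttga

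RNA from mtDNA took overlapping shares of the libraries of both fractions. All 37 genes together held 0.493 ± 0.0542% of counts in EpCAM+ libraries and 0.471 ± 0.0617% in EpCAM- libraries (SD, n = 4 each), with the 8 values between 0.409% and 0.556% and the fractions overlapping. Messenger RNAs made up most of this, at 0.427 ± 0.0529% and 0.402 ± 0.0463%. Ribosomal RNAs held 0.0652 ± 0.00336% and 0.0680 ± 0.0178%, and transfer RNAs 0.000606 ± 0.000293% and 0.000535 ± 0.000101%. No class separated the fractions. The kit primes on poly(A) tails, so the classes cannot be read as their proportions in the cell.

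Of the 37 members, 15 passed the filter on low counts, namely 11 messengers, both ribosomal RNAs and 2 transfer RNAs. Only mt-Co1 passed the test, as higher in EpCAM+ cells, and no member passed as lower, by the quasi-likelihood test of edgeR, adjusted after Benjamini and Hochberg over all genes. That is 1 of 15, beside 42.6% of the 13560 genes tested, of which 21.8% of genes were higher and 20.8% lower. An unadjusted p under 0.05 was reached by 2 of the 15, mt-Co1 and mt-Nd1. The main fit ignored the library numbers, and both DESeq2 and a fit with the library number as a block called mt-Nd1 lower. None of the 15 had libraries that did not overlap between fractions, against 40.1% of all tested genes. The 11 messengers tested include mt-Co2, mt-Co3, mt-Atp6 and mt-Nd3, whose nuclear copies also held counts, as described below, so that their fold changes are uncertain. The median log2 fold change of the 11 messengers was -0.11, the value of mt-Atp6, beside 0.02 over all genes tested. It was -0.01 without EpCAM- library 2, -0.01 without EpCAM+ library 1, -0.07 without EpCAM- library 4, -0.20 without EpCAM- library 3, -0.20 without EpCAM+ library 4, -0.18 without EpCAM- library 1 and -0.03 with upper-quartile scaling.

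**Figure D1:**
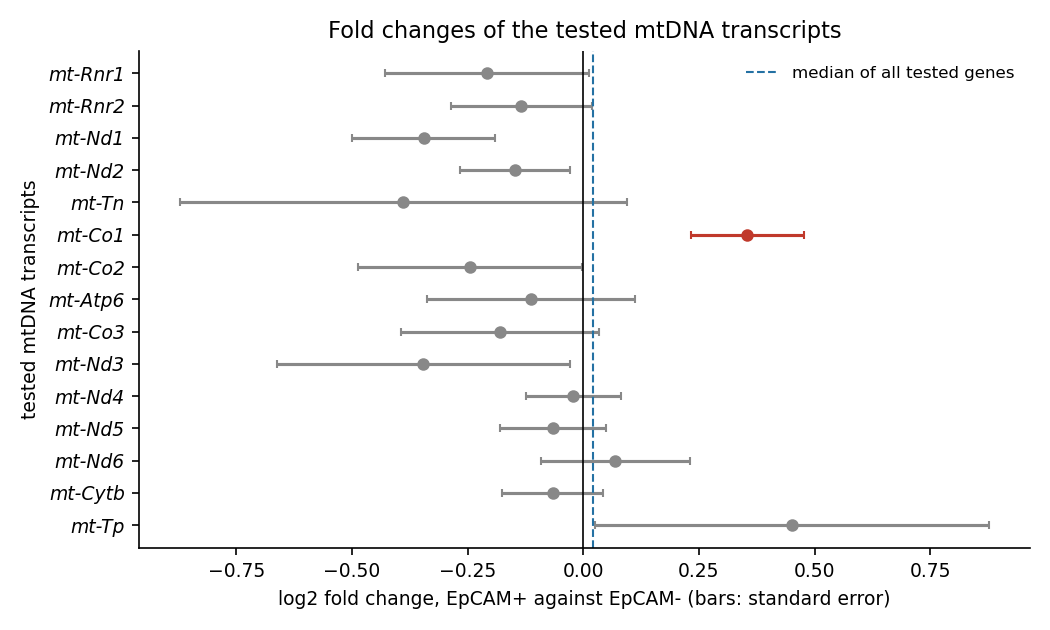
Log2 fold change of the 15 tested mtDNA transcripts, EpCAM+ against EpCAM-, with standard errors as bars, in their order on mtDNA. The red point is mt-Co1, the member that passed the adjusted test at 0.35, the grey points did not pass, and the dashed line is the median of all tested genes at 0.02.

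The ribosomal RNAs form the core of the mitochondrial ribosome. The 12S gene mt-Rnr1 was at 57.9, 41.1, 69.97 and 64.1 CPM in EpCAM+ libraries 1 to 4 and at 77.9, 91.7, 47.6 and 52.0 CPM in EpCAM- libraries 1 to 4. The 16S gene mt-Rnr2 was at 570, 551, 596 and 593 CPM in EpCAM+ libraries and at 602, 880, 518 and 535 CPM in EpCAM- libraries. For both genes the second EpCAM- library was the highest of the 8 and the fractions overlapped. Neither passed the test, with a log2 fold change of -0.21 (SE 0.22, adjusted p = 0.467) for mt-Rnr1 and -0.13 (SE 0.15, adjusted p = 0.50) for mt-Rnr2. Without that library the value of mt-Rnr2 was 0.06. The 16S RNA held 90.9 ± 1.54% and 90.5 ± 1.34% of ribosomal counts.

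Transfer RNAs were barely counted. They are 59 to 75 bases long, and 8 of the 22 (mt-Tf, mt-Tv, mt-Tq, mt-Ts1, mt-Td, mt-Tk, mt-Th and mt-Te) were at 0 in all 8 libraries, where a count of 0 allows up to 3 counts, or 0.168 to 0.222 CPM, for counting error only. The 12 others that were not tested (mt-Tl1, mt-Ti, mt-Tm, mt-Tw, mt-Ta, mt-Tc, mt-Ty, mt-Tg, mt-Tr, mt-Ts2, mt-Tl2 and mt-Tt) reached at most 7 counts in any library. The pair whose sequences are shown above, mt-Tp and mt-Tn, held 89.6 ± 3.92% of transfer RNA counts in EpCAM+ and 79.0 ± 11.04% in EpCAM- libraries. Counts of mt-Tp were 29, 85, 67 and 111 against 62, 57, 19 and 48, a log2 fold change of 0.45 (SE 0.43, adjusted p = 0.413). Counts of mt-Tn were 3, 16, 16 and 25 against 12, 20, 20 and 16, a log2 fold change of -0.39 (SE 0.48, adjusted p = 0.540). Both genes thus varied widely within a fraction and overlapped between fractions. Both lie on the strand opposite to most messengers, and since the kit keeps no strand their reads and antisense reads cannot be told apart.

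Complex I, the NADH dehydrogenase, takes 7 subunits from mtDNA. The membrane subunit mt-Nd1 was at 494, 665, 633 and 796 CPM in EpCAM+ libraries 1 to 4 and at 679, 918, 736 and 953 CPM in EpCAM- libraries 1 to 4. It was lower in EpCAM+ cells in 4 of 4 pairs of libraries with the same number, while the fractions as a whole overlapped. Its log2 fold change was -0.34 (SE 0.15, adjusted p = 0.0944), which did not pass the test. With the library number as a block it was -0.35 with an adjusted p of 0.00226 and passed, as it did with DESeq2, and its fits that left out a library ranged from -0.46 to -0.24 with adjusted p from 0.0351 to 0.212. The other complex I messengers tested were mt-Nd2 at -0.15, mt-Nd3 at -0.35, mt-Nd4 at -0.02, mt-Nd5 at -0.07 and mt-Nd6, the messenger on the opposite strand, at 0.07, and none passed. The sign for mt-Nd4 and mt-Nd5 turned positive with upper-quartile scaling and with library totals. The small subunit messenger mt-Nd4l had 1 to 10 counts per library and was not tested.

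Complex III takes a single subunit from mtDNA, cytochrome b. Its messenger mt-Cytb was the most abundant per length, at 1243 ± 113 CPM per kilobase in EpCAM+ and 1302 ± 165 in EpCAM- cells. Its level was 1246, 1557, 1435 and 1453 CPM in EpCAM+ libraries and 1412, 1744, 1299 and 1502 CPM in EpCAM- libraries. The libraries interleaved, and the log2 fold change was -0.07 (SE 0.11, adjusted p = 0.649), with 0.02 under upper-quartile scaling and library totals.

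Complex IV, cytochrome c oxidase, takes its catalytic subunit from mt-Co1. This messenger was at 1100, 1308, 1311 and 1552 CPM in EpCAM+ libraries 1 to 4 and at 978, 1196, 898 and 1051 CPM in EpCAM- libraries 1 to 4. It was higher in EpCAM+ cells in 4 of 4 pairs, and the fractions overlapped only through EpCAM+ library 1 and EpCAM- library 2. The log2 fold change was 0.35 (SE 0.12, adjusted p = 0.0382), or 1.28-fold. The call was lost in 6 of the 8 fits that left out a library, all but those without EpCAM+ library 1 or EpCAM- library 2, with log2 fold changes of 0.26 to 0.43 and adjusted p of 0.0170 to 0.118, and with a filter of 1 count in any library (adjusted p = 0.0564). The other 2 subunits of this complex were at much lower levels. The copper-binding subunit messenger mt-Co2 was at 9.86 ± 1.99 and 11.7 ± 4.06 CPM and mt-Co3 at 14.3 ± 2.54 and 16.3 ± 4.80 CPM, with log2 fold changes of -0.25 and -0.18, and neither passed.

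Complex V, the ATP synthase, takes 2 membrane subunits from mtDNA. The proton-channel subunit messenger mt-Atp6 was at 22.0, 26.0, 29.3 and 39.0 CPM in EpCAM+ and 27.7, 36.3, 20.5 and 41.3 CPM in EpCAM- libraries. Its log2 fold change of -0.11 did not pass. The mt-Atp8 messenger had 7 to 15 counts per library and was not tested.

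**Figure D2:**
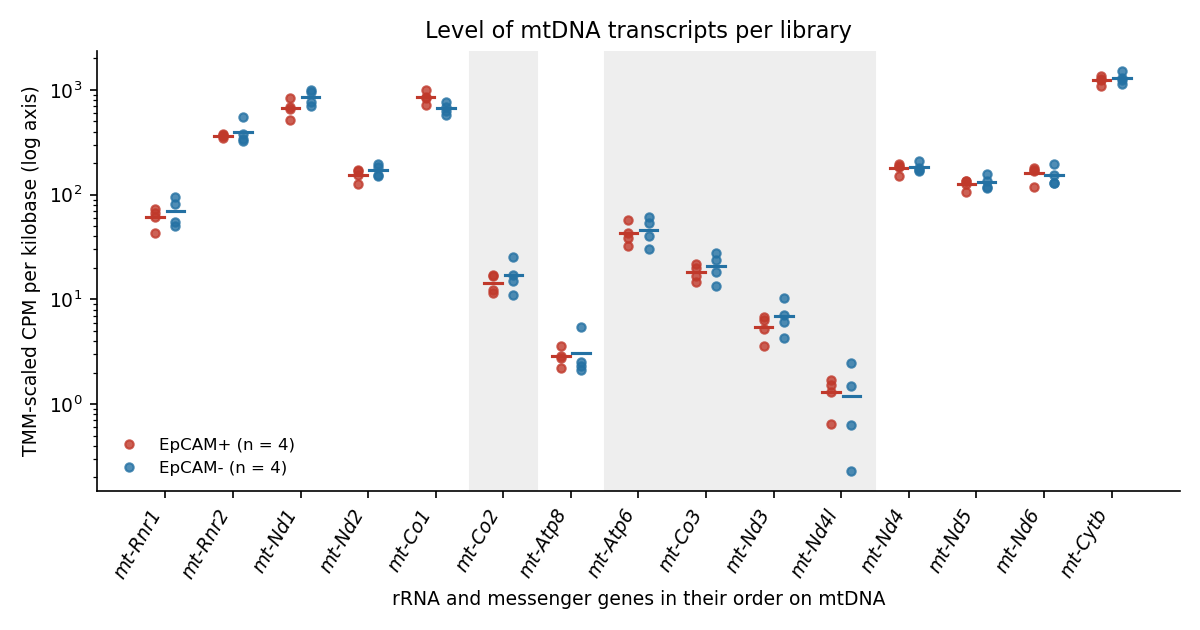
Level of the 15 messenger and ribosomal RNAs in TMM-scaled CPM per kilobase on a log axis, in their order on mtDNA, with a point for each of the 4 EpCAM+ (red) and 4 EpCAM- (blue) libraries and a bar at each mean. Grey bands mark the 5 genes with a near-identical nuclear copy over at least 99% of their length, which lie between 1.25 and 44.5 on average.

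Per length, counts on the messenger genes differed by orders of magnitude. How reads from bases shared by overlapping genes were counted is not given in the sources used here. Over all 8 libraries the mean level was 1273 CPM per kilobase for mt-Cytb, 767 for mt-Nd1 and 760 for mt-Co1, and then 181 for mt-Nd4, 163 for mt-Nd2, 156 for mt-Nd6 and 129 for mt-Nd5. The order of mt-Nd1 and mt-Co1 over their whole lengths differed between the fractions, though their libraries overlapped within each. In EpCAM+ libraries mt-Co1 was at 853 ± 119 CPM per kilobase and mt-Nd1 at 676 ± 130, whereas in EpCAM- libraries they were at 667 ± 81.9 and 858 ± 140. Divided by only the 1062 bases outside its nuclear copy, described below, mt-Co1 was at 1241 ± 174 and 971 ± 119. These means lay above those of mt-Nd1 in both fractions, though the EpCAM- libraries of both genes overlapped. That division supposes that no counted read came from the copied bases. In the run from mt-Nd4 to mt-Nd5, neighbours overlapped within each fraction, while mt-Nd4 and mt-Nd5 themselves did not overlap in either. Far below came mt-Atp6 at 44.5, mt-Co3 at 19.5, mt-Co2 at 15.8, mt-Nd3 at 6.24, mt-Atp8 at 2.99 and mt-Nd4l at 1.25 CPM per kilobase.

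Shares of the messenger pool separated the fractions for 2 transcripts whose levels overlapped. Of all mtDNA messenger counts, mt-Co1 held 31.6%, 30.2%, 31.2% and 33.5% in EpCAM+ libraries and 25.7%, 24.8%, 24.7% and 24.2% in EpCAM- libraries. All 4 EpCAM+ values lay above all 4 EpCAM- values. The share of mt-Nd1 was 14.2%, 15.3%, 15.1% and 17.2% in EpCAM+ and 17.9%, 19.0%, 20.2% and 21.9% in EpCAM- libraries, again without overlap and in the opposite direction. The share of mt-Cytb was 34.3 ± 2.15% and 35.9 ± 1.09% and overlapped. By complex, complex I messengers held 32.8 ± 1.07% and 37.9 ± 1.67%, and complex IV messengers 32.2 ± 1.41% and 25.5 ± 0.662%, each without overlap. Nearly all of the complex IV share was mt-Co1, at 31.6% and 24.8% on average. The shares of mt-Co2 (0.237% and 0.277%) and mt-Co3 (0.343% and 0.386%) were lower in EpCAM+ libraries on average and overlapped. Within complex I, no messenger other than mt-Nd1 had shares that separated the fractions. Complex V messengers held 0.707 ± 0.103% and 0.765 ± 0.164% and overlapped. These shares add up to a fixed whole, so a higher share of mt-Co1 lowers the others by construction, and no test was run on them.

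**Figure D3:**
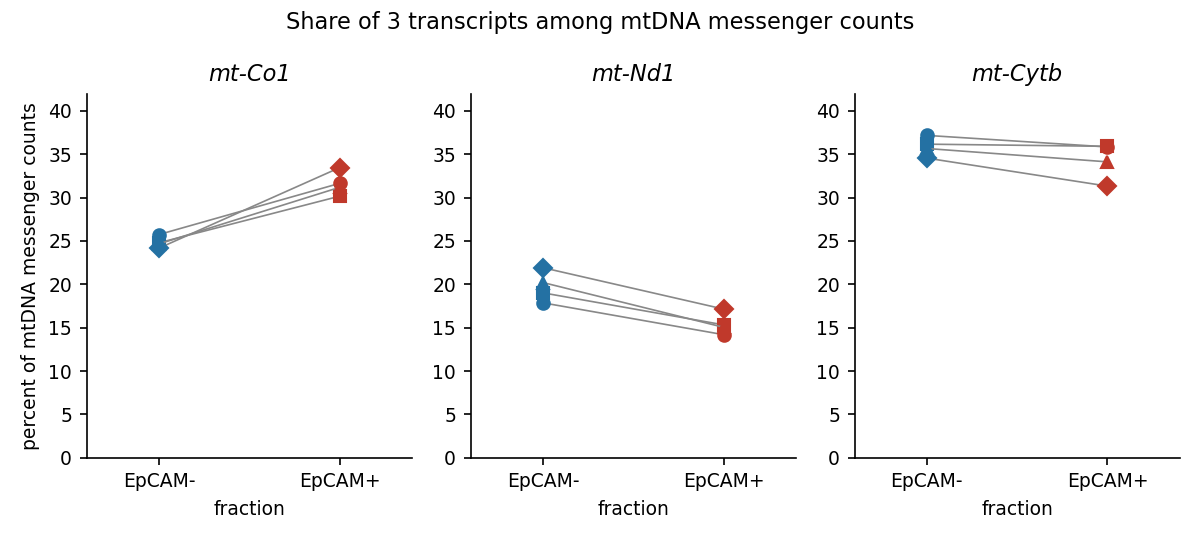
Share of mtDNA messenger counts held by mt-Co1, mt-Nd1 and mt-Cytb, in percent, in the 4 EpCAM- (blue) and 4 EpCAM+ (red) libraries, with a line and a marker shape for each pair of libraries with the same number. The mt-Co1 share was 24.2% to 25.7% against 30.2% to 33.5%, the mt-Nd1 share 17.9% to 21.9% against 14.2% to 17.2%, and the mt-Cytb shares overlapped.

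Ratios of 2 transcripts within a library do not depend on scaling, and 5 were compared with two-sided exact permutation tests, adjusted over the 5. The ratio of mt-Nd4 to mt-Co1 counts was 0.187, 0.207, 0.192 and 0.168 in EpCAM+ and 0.240, 0.241, 0.256 and 0.238 in EpCAM- libraries. All EpCAM+ values lay below all EpCAM- values, a log2 difference of -0.37 with exact p = 0.0286, the smallest that 4 against 4 can give. The adjusted p was 0.143 and did not pass, but 1 ratio alone at that smallest p cannot pass after adjustment over 5. The ratio of mt-Cytb to mt-Nd1 was higher in EpCAM+ cells in 4 of 4 pairs, with a log2 difference of 0.29 (exact p = 0.0857, adjusted p = 0.214), and overlapped. So was that of mt-Nd6 to mt-Nd5, on opposite strands, with a log2 difference of 0.13 (exact p = 0.143, adjusted p = 0.238). Since the kit keeps no strand, reads of mt-Nd6 or mt-Nd5 and antisense reads cannot be told apart. The ratios of mt-Rnr2 to mt-Nd1 and to mt-Rnr1 differed by 0.25 (exact p = 0.343) and 0.08 (exact p = 0.714) on the log2 scale. The ratio of mt-Co1 to mt-Nd1, chosen after their values were seen and not tested, was 2.23, 1.97, 2.07 and 1.95 in EpCAM+ and 1.44, 1.30, 1.22 and 1.10 in EpCAM- libraries.

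The nuclear genome holds old copies of mtDNA, and a read from a copied stretch can be assigned to either place. A search of the 37 genes against 141730 annotated transcripts found 7 nuclear pseudogenes with at least 99% identity over at least 100 bases, all on the minus strand of chromosome 1 between 24611535 and 24616197. They are Gm29216 (bases 1063 to 1545 of mt-Co1, with the substitution A1066T), Gm28661 (mt-Co2), Gm10925 (mt-Atp6), Gm28437 (mt-Co3), Gm28438 (mt-Nd3, with T3C as shown above), Gm10222 (mt-Nd4l) and Gm28439 (the first 876 bases of mt-Nd4). The 5 genes copied over at least 99% of their length had mean levels of 1.25 to 44.5 CPM per kilobase. Among messenger and ribosomal genes for which no such copy was found, mt-Atp8 was at 2.99, inside that range, and the other 7 were at 65.8 to 1273. Copies outside annotated transcripts were not searched. One such stretch lies on chromosome 1 between Gm10925, which ends at 24614651, and Gm28661, which starts at 24614885. On mtDNA, mt-Atp8 lies between the genes of these 2 copies, and its last 43 bases match Gm10925. Whether mt-Atp8 has a near-identical copy there is therefore not known. For mt-Nd4, dividing by the 502 bases outside the copy in place of the whole gene gave 496 CPM per kilobase in place of 181, which supposes that no counted read came from the copied bases. How reads that align to several places were counted is not given in the sources used here.

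Where the copy spans the gene, both rows held counts. Whether the 2 rows together hold all reads of such a gene was not tested. Gm10925 took 44.7% to 49.8% of the counts on itself and mt-Atp6, Gm28437 took 38.6% to 50.4% with mt-Co3, and Gm28661 took 30.3% to 49.8% with mt-Co2. In no library of these 3 pairs did the copy take more than 50.4%. Gm28438, which differs from mt-Nd3 by the single base shown above, took 5.0% to 15.0%. Gm10222 took 14.3% to 80% with mt-Nd4l, on 1 to 10 counts of the latter. Where the copy spans only part of the gene its share was small, at 0.1% to 0.6% for Gm28439 with mt-Nd4 and 0.3% to 0.6% for Gm29216 with mt-Co1. Levels and fold changes of mt-Co2, mt-Co3, mt-Atp6, mt-Nd3 and mt-Nd4l are therefore uncertain. None of the 5 copies tested passed, with Gm29216 at a log2 fold change of 0.56 (adjusted p = 0.0925) and Gm28439 at -1.05 (adjusted p = 0.0667). With each copy's counts added to its member, mt-Co1 stayed at 0.36 (adjusted p = 0.0382) and was again the only member to pass.

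**Figure D4:**
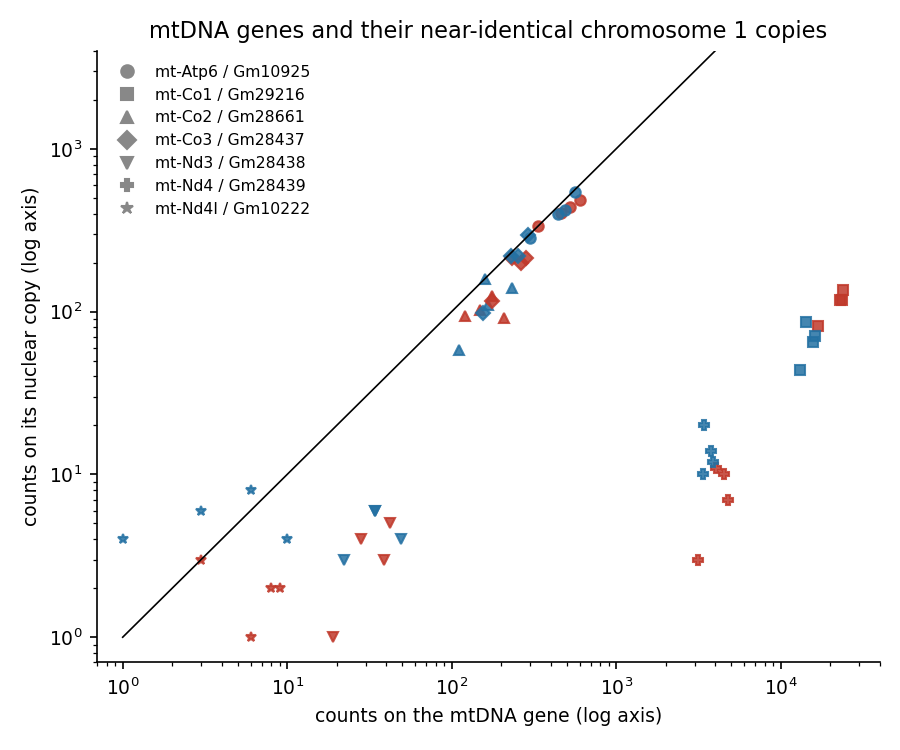
Counts on 7 mtDNA genes (x, log axis) and on their near-identical chromosome 1 copies (y, log axis), with a marker shape for each pair, a point for each library, EpCAM+ in red and EpCAM- in blue, and a line at equality. The mt-Atp6, mt-Co3 and mt-Co2 pairs lie near the line, while mt-Co1 and mt-Nd4 lie far below it, with 0.1% to 0.6% of counts on the copy.

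The nuclear genes that copy and transcribe mtDNA and process its RNA included many that were lower in EpCAM+ cells. Over 6 lists of this machinery, 40 of 86 tested genes were lower and 4 higher in EpCAM+ cells, so 46.5% were lower beside 20.8% of all genes tested. Of 9 genes for transcription of mtDNA 1 was lower, with a median log2 fold change of -0.14. That gene was Tfb2m, which opens mtDNA promoters, at 33.6 ± 2.03 against 41.95 ± 4.66 CPM (log2 fold change -0.32, adjusted p = 0.0239). The count was 2 with the library number as a block and 0 with upper-quartile scaling. The mitochondrial RNA polymerase Polrmt was at -0.29 (adjusted p = 0.0751), the packaging and transcription factor Tfam at -0.14 (adjusted p = 0.193), the elongation factor Tefm at -0.14 (adjusted p = 0.428) and Mterf3 at -0.20 (adjusted p = 0.0530), and none of these passed.

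Of 18 genes that copy and keep mtDNA 3 were higher and 5 lower, shares near the 21.8% and 20.8% of all tested genes. The endonuclease Endog (-1.09), the nucleoid-associated Atad3a (-0.71) and the mitochondrial topoisomerase Top1mt (-0.61) were lower, and the higher genes were Mpv17 (0.34), Rrm2b (0.52) and Dguok (0.27), named after their values were seen, of which Rrm2b and Dguok supply nucleotides. The polymerase Polg was at -0.03 (adjusted p = 0.855) and the helicase Twnk at -0.26 (adjusted p = 0.0554). Genes that cut precursors and finish RNA ends were lower in 10 of 14 and higher in 1, with a median of -0.36. Among them were the CCA-adding enzyme Trnt1 (-0.51), the tRNA 3' endonuclease Elac2 (-0.78) and Tbrg4 (-0.92), and the higher gene was Hsd17b10 (0.28), a subunit of mitochondrial RNase P.

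Genes of messenger stability and decay were lower in 7 of 10, with none higher and a median of -0.45. Lrpprc, which binds and stabilises mtDNA messengers, was at 38.4 ± 0.893 against 58.8 ± 6.02 CPM (log2 fold change -0.62, adjusted p = 0.000538), without overlap. Its partner Slirp was at 4.26 ± 0.663 against 5.06 ± 0.980 CPM and did not pass (adjusted p = 0.354). The helicase Supv3l1 (-0.70) and the exonuclease Pnpt1 (-0.54), which degrade mitochondrial RNA together, were lower too. Of 20 genes for ribosomal RNA modification and ribosome assembly 9 were lower, among them C1qbp (-0.97), the rRNA methyltransferase Mrm3 (-0.56) and Rbfa (-0.49). Of 16 genes for transfer RNA modification 8 were lower, among them Pus1 (-0.69), Qtrt1 (-0.50) and Trmt5 (-0.44).

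Nuclear subunits of the complexes that also hold mtDNA-encoded subunits were lower in 32 of 78 tested genes and higher in none, so 41.0% were lower beside 20.8% of all genes. In complex I 13 of 37 were lower with a median of -0.22, with Ndufa10 at -0.60, Ndufs1 at -0.59 and Ndufv1 at -0.56. In complex III 6 of 9 were lower with a median of -0.46, with Cyc1 at -0.69, Uqcrfs1 at -0.50 and Uqcrc2 at -0.46. In complex IV 5 of 14 were lower with a median of -0.30, with Cox6a2 at -2.43 on a mean of 1.14 against 6.14 CPM, Cox5a at -0.48 and Cox6a1 at -0.44. In complex V 8 of 18 were lower with a median of -0.30, with Atp5g1 at -0.89, Atp5d at -0.46 and Atp5b at -0.50. With the library number as a block the counts for complexes I, III, IV and V were 23, 7, 9 and 13. With upper-quartile scaling complex I had 6 and complex V 5, and with library totals complex I had 8. Without EpCAM+ library 1 or EpCAM- library 2 complex I had 8 each, and without EpCAM+ library 3 complex V had 5. Of the 11 mtDNA messengers tested, which encode subunits of the same complexes, none was lower. With the block, with DESeq2 and in 2 of the 8 fits that left out a library, 1 was lower (mt-Nd1). The 11 include mt-Co2, mt-Co3, mt-Atp6 and mt-Nd3, whose fold changes are uncertain. The difference between the counts of lower nuclear and mtDNA genes was not tested. The erythroid and myeloid marker sums given above moved with these lists, and their part was not tested.

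**Figure D5:**
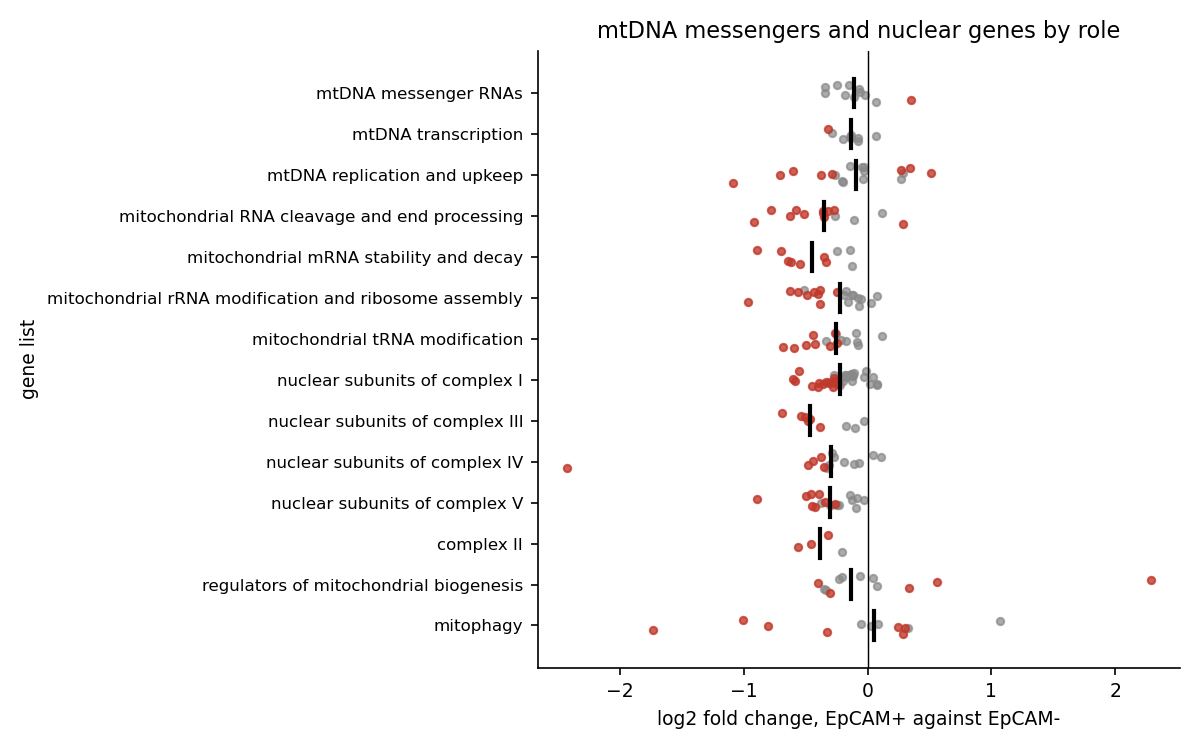
Log2 fold change, EpCAM+ against EpCAM-, of the 11 tested mtDNA messengers and of the genes of 13 nuclear lists, with a point per gene, red where it passed the adjusted test, and a black bar at each median. The medians of the 4 lists of nuclear subunits lie between -0.46 and -0.22. That of the mtDNA messengers, which include mt-Co2, mt-Co3, mt-Atp6 and mt-Nd3 with uncertain fold changes, lies at -0.11, or -0.20 to -0.01 with a library left out.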

How the data were processed

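RNA was amplified with SMART-Seq v4, which primes on poly(A) and keeps no strand, from 8 libraries of 150-bp paired-end reads. The authors aligned reads to GRCm38.p6 with STAR 2.6.1d and counted them with featureCounts 1.5.0-p3. The deposited raw counts per gene were used. Not used were the FPKM columns, which the authors scaled by gene length and mapped reads, and the log2 fold changes and p-values that the authors computed with DESeq2 1.20.0 for the fractions and for same-numbered libraries. Totals were 14114491 to 17073546. Genes were filtered with filterByExpr (13560 kept), scaled by TMM and tested with edgeR 4.0.16 (R 4.3.3) by the quasi-likelihood F-test across the fractions, Benjamini-Hochberg adjusted, at a threshold of 0.05. Alternatives used DESeq2 1.42.0, other scalings and filters, a replicate block and fits without each library. The edgeR step was tested on simulated data. Ratios used counts plus 0.5 and exact permutation (scipy 1.17.1). Copies were found with blastn 2.17.0 (at least 85% identity over 40 bases) among GENCODE M21 transcripts.

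The libraries carry replicate numbers 1 to 4 in both fractions. Deviations from the fraction means correlated at 0.23 to 0.378 in the 4 pairs with the same number. They correlated at -0.233 to 0.042 in the 12 with different numbers. Libraries with the same number are therefore described as pairs, as a hint from the data that the labels do not state. The main fit and the permutation tests did not use these pairs, and only the alternative with the replicate block did. Named genes were all members, their near-identical copies, 8 fixed nuclear genes and up to 3 genes per list with the smallest adjusted p. The members and lists were chosen with earlier results of these data known, and p-values measure the spread between these libraries.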

Additional observations from a re-analysis of the deposited data

Results flagged for a closer look

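The level of Gm28437, the chromosome 1 copy of mt-Co3, was 7.58 CPM in EpCAM+ library 1, far below the 11.96 to 12.8 CPM of the other 3 EpCAM+ libraries, and it was marked because this gap took up 0.833 of the range of the group. The same rule was applied to 56 groups of 4 libraries, of which chance alone is expected to mark about 1 in 20, or 2.8. In that library Gm28437 had 116 counts and mt-Co3 175, the lowest mt-Co3 count among the EpCAM+ libraries.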

How the results depend on the processing

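Of the mtDNA members, mt-Co1 was higher in every alternative, and the number of members called higher was 1 except with the filter of 1 count in any library (0) and with a library left out (0 to 1). The number called lower was 0 except with DESeq2 (1), with the replicate block (1) and with a library left out (0 to 1), where the member was mt-Nd1. Under upper-quartile scaling and library totals, which moved the median log2 fold change of all genes from 0.0215 to 0.107 and 0.105 and the share of calls that were higher from 51.2% to 63.6% and 62.7%, mt-Nd4 was at 0.0651 and 0.0655, mt-Nd5 at 0.0205 and 0.0215 and mt-Cytb at 0.0196 and 0.0207, against -0.02, -0.07 and -0.07. With the filter of 10 counts in every library mt-Nd4 was at 0.0041. With a library left out the sign turned in some fits for mt-Rnr2 (-0.2255 to 0.0573), mt-Atp6 (-0.2894 to 0.0393), mt-Nd4 (-0.0681 to 0.0507), mt-Nd5 (-0.1276 to 0.0269), mt-Nd6 (-0.0118 to 0.2101), mt-Cytb (-0.1331 to 0.01) and the ratio of mt-Rnr2 to mt-Rnr1 (-0.0547 to 0.1631). None of these had passed the test. The cause was not tested.

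Counts of nuclear genes lower in EpCAM+ cells moved as follows. For mtDNA transcription the count of 1 was 2 with DESeq2, 2 with its size factors in edgeR, 2 with the replicate block, 0 with upper-quartile scaling, 0 with library totals and 0 to 2 with a library left out. For replication and upkeep it was 3 with library totals and 3 to 6 with a library left out. For tRNA modification it was 5 with upper-quartile scaling, 5 with library totals and 5 to 9 with a library left out. For complex I subunits it was 6 with upper-quartile scaling, 8 with library totals, 23 with the replicate block and 8 to 16 with a library left out. For complex IV it was 9 with the replicate block, and for complex V 5 with upper-quartile scaling, 13 with the replicate block and 5 to 11 with a library left out. For regulators of biogenesis it was 0 with upper-quartile scaling, 0 with library totals, 1 with the filter of 10 counts, 4 with the replicate block and 0 to 4 with a library left out. The block changed no other call on a member than that of mt-Nd1. Adding the counts of nuclear copies to their members, an alternative chosen after seeing the data, changed no call on a member.

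Counts of mt-Atp8, mt-Nd4l and 20 transfer RNAs were too low for a test, so nothing can be said here about a difference in them.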

Other observations

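Other nuclear lists of mitochondrial genes were measured beside the mtDNA transcripts. Complex II, which has no mtDNA-encoded subunit, was lower in EpCAM+ cells in 3 of 4 genes, beside 20.8% of all genes tested. Its median log2 fold change was -0.39, with Sdhd at -0.56, Sdhb at -0.46 and Sdhc at -0.32. Of 12 regulators of mitochondrial biogenesis 3 were higher and 2 lower, shares near the 21.8% and 20.8% of all tested genes. The higher genes were the coactivator Ppargc1a at 2.69 ± 0.676 against 0.540 ± 0.305 CPM (log2 fold change 2.29), Tfeb (0.56) and Gabpb1 (0.33). The lower genes, named after their values were seen, were Myc (-0.40) and Gabpa (-0.31). With the replicate block 4 genes of that list were lower. Of 12 mitophagy genes 3 were higher and 4 lower, beside the same 21.8% and 20.8%, with a median of 0.05, and the lower genes included Phb2 (-1.01), the autophagy receptor Optn (-1.74) and Bcl2l13 (-0.80).

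Beyond the 7 near-identical copies, older nuclear copies of mtDNA took few counts. Gm13340, a chromosome 2 pseudogene that spans all 1545 bases of mt-Co1 at 97.6% identity, had 1 to 7 counts per library, against 13160 to 23930 counts on mt-Co1. Gm11410, a chromosome 4 pseudogene of mt-Cytb at 92.9% identity, was at 0 in all 8 libraries.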
